A study of Homo sapiens with 12 samples.

Results

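The genes described here are 10 targets of the transcription factor p53 that are widely read as a record of DNA damage: CDKN1A, GADD45A and BTG2 (cell cycle arrest), MDM2 (feedback on p53), FAS, BBC3, BAX and TP53I3 (cell death), and PHLDA3 and SESN1 (survival and stress signalling). Each was followed through every probe set whose platform annotation holds that symbol and no other. This gave 16 of the 22215 probe sets that were tested, for 8 of the 10 genes; BTG2 and BBC3 were not analysed here. MDM2 had 5 probe sets, FAS 4, BAX 2 and the other 5 genes 1 each, so the 16 values are not independent.

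RNA came from the S1 cells of HMT-3522, a long-established line of non-neoplastic epithelium from the human breast, at passage 55 to 60, grown with 5% Matrigel for 10 days, a culture in which the cells build acini. EGF was present for 8 days and absent for the last 48 h in every group. The 4 vehicle cultures are labelled polarized, and the 4 AGA and 4 Aza cultures not polarized. AGA (18-alpha-glycyrrhetinic acid) blocks gap junctions. Aza (5-aza-2'-deoxycytidine) is a cytidine analogue that inhibits DNA methyltransferases. Both were used at 10 µM, starting at plating, for 10 days, in medium renewed every 2 days. All 12 samples are of 1 cell line, and the labels number the replicates 1 to 4 in each group and say no more of how separate the cultures were. A p-value here therefore measures only the spread between these samples. In bulk RNA, fewer cells of a kind and less RNA per cell cannot be told apart.

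p53 is held low in unstressed cells by MDM2, a ubiquitin ligase that p53 itself induces. Damage-activated kinases such as ATM and ATR free p53 from this loop, and it then raises genes that stop the cell cycle, repair DNA or start apoptosis. Aza is built into DNA in S phase and traps methyltransferases on it, lesions that can be read as damage, so the question put to these genes was whether 10 days with the analogue left such a response in the transcripts. As further background, the HMT-3522 line is known to carry a point mutation in its p53 gene, which the labels do not mention; its part in these values was not tested.

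Promoter sequence was read for 2 features, p53 elements and CpG sites. RefSeq windows of 300 bases on GRCh38.p14, running from 250 bases before a transcription start to 50 after it, were matched by symbol for 8 of the 10 genes, in 15 windows; GADD45A and PHLDA3 were not matched. The p53 decamer consensus, the unit of which a full p53 element holds 2 copies and which is its own reverse complement, was found in 2 of the 15 windows and in 6.63% of the 35116 windows of all genes. Both windows are printed 5′ to 3′ on the gene's strand, with the decamer in capitals; they lie at chr10:88991181-88991480 on the plus strand (1 of 3 FAS starts) and at chr6:109008939-109009238 on the minus strand (1 of 3 SESN1 starts).
FAS: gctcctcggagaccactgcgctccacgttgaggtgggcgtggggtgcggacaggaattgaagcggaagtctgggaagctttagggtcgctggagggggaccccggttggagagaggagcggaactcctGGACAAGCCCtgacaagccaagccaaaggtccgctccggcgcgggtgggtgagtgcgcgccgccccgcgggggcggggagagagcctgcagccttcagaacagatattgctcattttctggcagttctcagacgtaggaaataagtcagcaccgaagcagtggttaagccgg
SESN1: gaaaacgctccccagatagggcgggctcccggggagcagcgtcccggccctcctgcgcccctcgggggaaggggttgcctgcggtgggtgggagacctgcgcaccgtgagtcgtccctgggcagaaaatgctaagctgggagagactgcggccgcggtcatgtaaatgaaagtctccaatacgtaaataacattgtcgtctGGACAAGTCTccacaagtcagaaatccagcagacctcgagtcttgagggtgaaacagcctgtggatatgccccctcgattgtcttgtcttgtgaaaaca
The decamer is GGACAAGCCC at bases 129 to 138 of the FAS window and GGACAAGTCT at bases 202 to 211 of the SESN1 window. A match in letters is a description of the window and not evidence that p53 binds there.

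CpG dinucleotides are where cytosine methylation, which Aza lowers, is placed. The median window held 14 of them, and 12 of the 15 windows of these genes held more. Some of the 15 overlap: the MDM2 windows form overlapping pairs that held 39, 39, 21 and 21, and FAS windows also overlap. Neither this count nor that of the decamer is therefore over separate sequences. BAX and TP53I3 are shown, with each CpG in capitals, because their 3 probe sets had the highest differences between Aza and vehicle of any outside MDM2 and because their windows stand far apart in CpG number. The BAX window at chr19:48954625-48954924 (plus strand) held 38 and the TP53I3 window at chr2:24084785-24085084 (minus strand) held 9.
BAX: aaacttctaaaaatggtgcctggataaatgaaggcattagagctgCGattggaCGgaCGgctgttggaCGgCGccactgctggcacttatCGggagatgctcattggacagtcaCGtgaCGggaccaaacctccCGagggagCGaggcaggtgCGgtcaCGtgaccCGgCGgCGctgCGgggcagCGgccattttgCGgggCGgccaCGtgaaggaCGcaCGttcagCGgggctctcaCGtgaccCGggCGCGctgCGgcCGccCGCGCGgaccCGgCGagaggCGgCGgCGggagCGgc
TP53I3: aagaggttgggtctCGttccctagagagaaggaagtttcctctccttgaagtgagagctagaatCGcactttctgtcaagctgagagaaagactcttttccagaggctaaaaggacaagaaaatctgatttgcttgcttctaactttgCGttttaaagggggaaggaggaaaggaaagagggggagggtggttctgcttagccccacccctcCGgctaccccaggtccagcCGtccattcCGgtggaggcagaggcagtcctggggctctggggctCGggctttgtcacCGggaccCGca
The CDKN1A window, at chr6:36678464-36678763 on the plus strand, held 29 CpG, and neither it nor any of the 4 MDM2 windows held the decamer, which says only that those letters are not in these windows. Methylation itself was not measured in these samples.

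The levels below are log2 of the array intensity after quantile normalization, and a difference of 1 is a factor of 2. Differences are means of 4 treated minus 4 reference arrays with the standard error (SE) of the limma fit, intervals are 95%, and an adjusted p under 0.05 (Benjamini-Hochberg over all 22215 probe sets) was required for a call. No probe set of the 8 genes passed in any of the 3 comparisons, and in each comparison limma gave an adjusted p of 1 for all 16. The background was as low: 0.00900% of all probe sets passed for AGA against vehicle, 0.00900% for Aza against vehicle and 0.0135% for Aza against AGA, so a count of 0 among 16 does not set these genes apart. The intervals carry more than the calls, but they come from the main fit, which leaves the replicate number out. For Aza against vehicle, 15 of the 16 intervals held 0, and 10 of the 11 probe sets outside MDM2 had an upper bound below 1. With the replicate number as a block, the TP53I3 interval for Aza against vehicle (0.09 to 0.95) also lay above 0. That of MDM2 217542_at for AGA against vehicle (-0.93 to -0.002) then lay below 0.

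**Figure D1:**
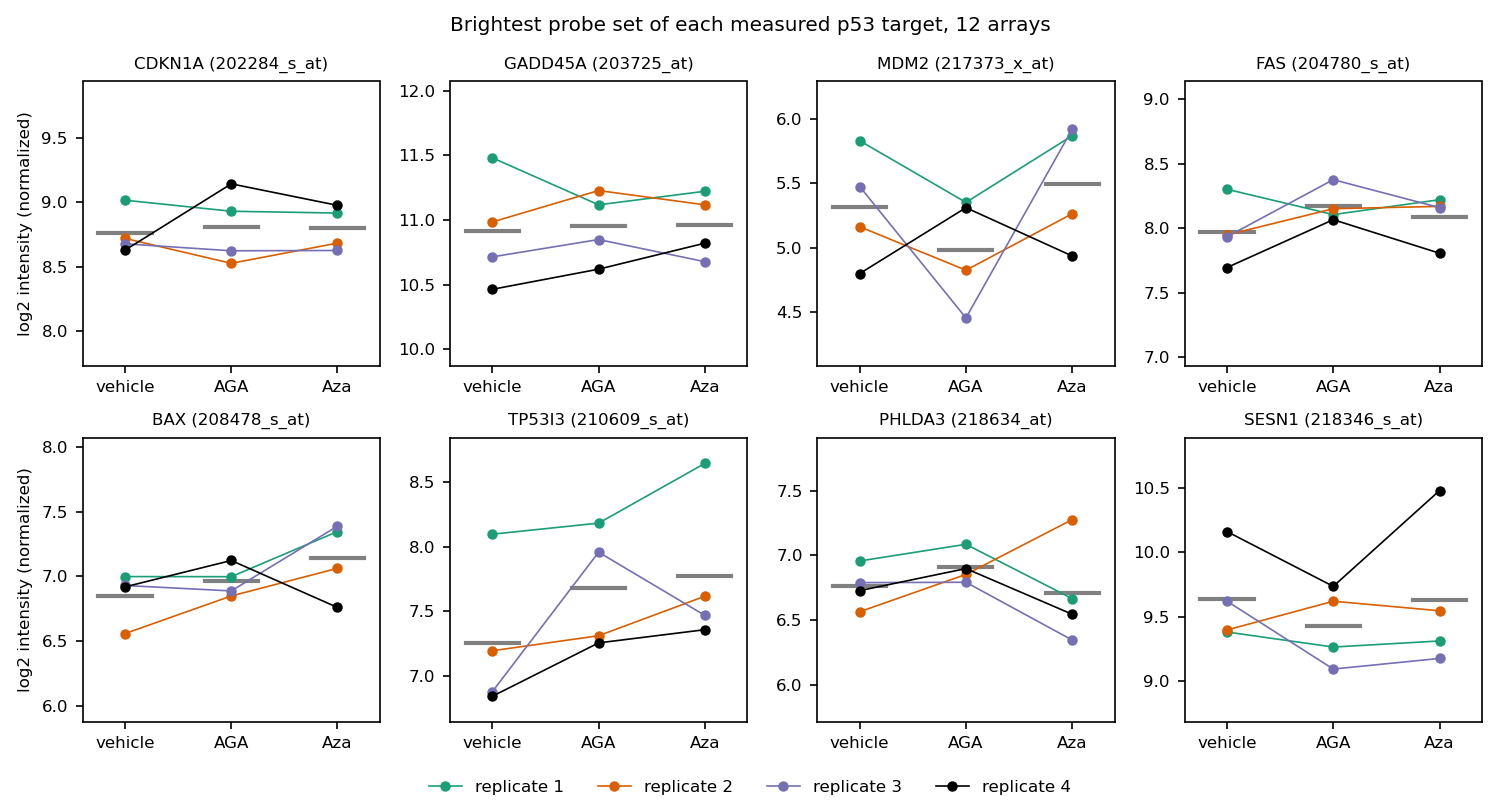
Normalized log2 intensity (vertical axes, each placed at its own level) of the brightest probe set of each of the 8 genes in vehicle, AGA and Aza (horizontal axis); points are single arrays, lines join arrays of 1 replicate number and grey bars are means of 4 arrays. For TP53I3 each replicate's Aza point lies above its vehicle point, by 0.42 to 0.59, and for SESN1 the line of replicate 4 lies above the rest.

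The arrest genes were abundant and showed no difference beyond the spread between cultures. CDKN1A encodes p21, the inhibitor of cyclin-dependent kinases that is the standard readout of p53 activity. Its probe set, 202284_s_at, read 9.02, 8.72, 8.68 and 8.63 in vehicle replicates 1 to 4, 8.93, 8.53, 8.62 and 9.14 with AGA, and 8.92, 8.68, 8.63 and 8.98 with Aza, higher than 92.1% of probe sets. The 3 groups overlapped over most of their range. The difference for Aza against vehicle was 0.04 ± 0.18 (SE, n = 4 and 4; interval -0.35 to 0.43), so that a rise in the mean above 1.35-fold lies outside the interval. For AGA it was 0.05 ± 0.18, with an interval of -0.35 to 0.44. The replicate block gave narrower intervals, -0.27 to 0.35 for Aza and -0.27 to 0.36 for AGA. In 3 of the 4 pairs of equal replicate number CDKN1A was slightly lower with Aza (-0.10, -0.04 and -0.05), and in replicate 4 it was higher by 0.35. Without the replicate 4 arrays the Aza difference was -0.06.

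GADD45A binds PCNA and p21 and is induced by many kinds of genotoxic stress. Its probe set, 203725_at, was the brightest of the 16, above 98.2% of probe sets, at 11.48, 10.98, 10.71 and 10.46 in vehicle, 11.12, 11.23, 10.85 and 10.62 with AGA, and 11.22, 11.12, 10.68 and 10.82 with Aza. Vehicle alone spanned more than the AGA and Aza groups did. Its differences were 0.04 ± 0.24 for AGA and 0.05 ± 0.24 for Aza (interval -0.49 to 0.58), and the Aza pairs had both signs. The replicate block gave a narrower Aza interval, -0.27 to 0.37.

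MDM2 was dim, and its 5 probe sets did not point one way. Their mean levels ran from 2.66 to 5.27, at the 29.3 to 54.9 percentiles of all probe sets. For Aza against vehicle the 5 differences were -0.58 (205385_at), -0.29 (205386_s_at), 2.15 (211832_s_at), 0.18 (217373_x_at) and -0.27 (217542_at). The 2 brightest, 217373_x_at and 217542_at, had opposite signs. For AGA the same probe sets gave 0.45, -0.23, 1.45, -0.33 and -0.47.

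Only 211832_s_at among the 16 had an unadjusted p under 0.05 for Aza against vehicle (limma, unadjusted p = 0.0108, adjusted p = 1), with an interval of 0.61 to 3.69; over all probe sets the share was 3.27%. Its levels were 3.42, 0.62, 1.17 and 0.63 in vehicle, 3.25, 3.01, 4.10 and 1.28 with AGA, and 3.02, 4.13, 3.85 and 3.45 with Aza. Vehicle replicate 1 lay inside the treated range, and the other 3 vehicle arrays lay below all 8 treated ones. In the same order, the deposited intensities of this probe set were 11.0, 1.77, 2.37 and 1.68 in vehicle and 8.52, 19.0, 15.2 and 10.3 with Aza, on arrays whose medians ran from 23.3 to 35.9. The difference grew to 2.80 without vehicle replicate 1 (adjusted p = 0.662) and shrank to 0.04 when intensities below 16 were set to 16.

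**Figure D2:**
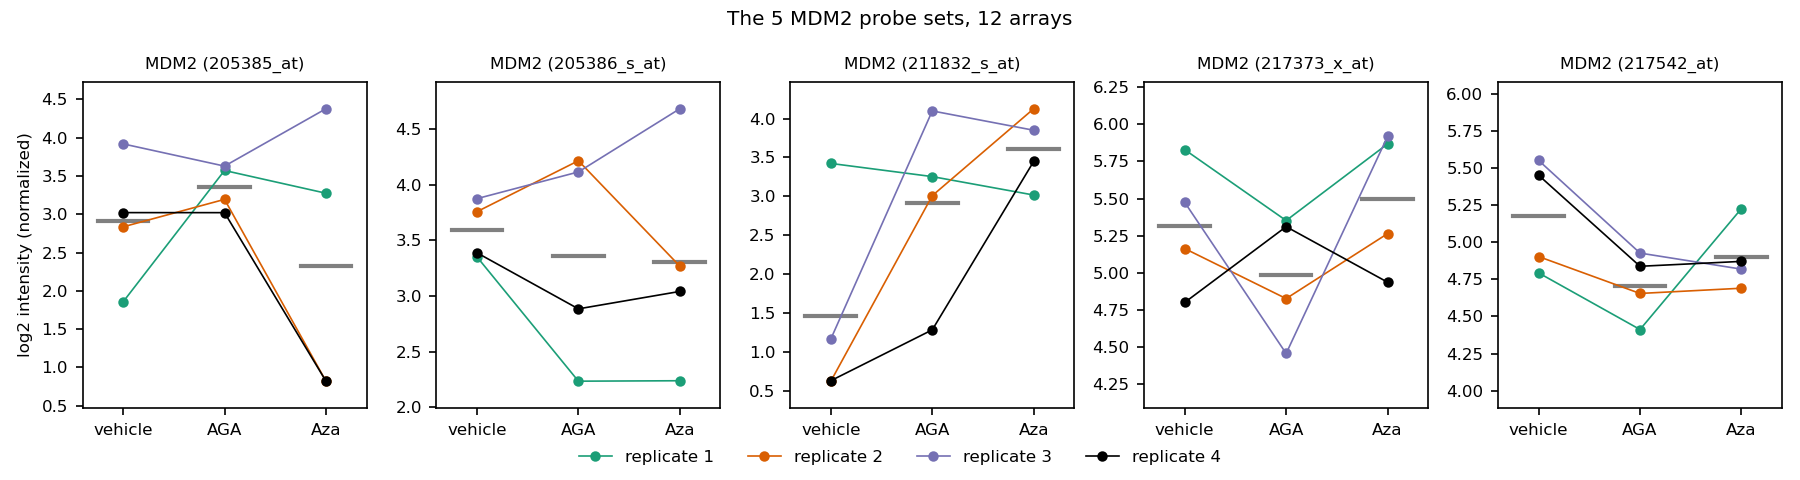
Normalized log2 intensity (vertical axes) of the 5 MDM2 probe sets in vehicle, AGA and Aza (horizontal axis), with points for arrays, lines joining equal replicate numbers and grey bars for means of 4 arrays. The 211832_s_at vehicle arrays of replicates 2, 3 and 4 lie at 0.62 to 1.17, while replicate 1 lies at 3.42 among the treated arrays; in the other 4 probe sets the 3 groups overlap.

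Among the death genes, FAS, the cell surface receptor that starts extrinsic apoptosis, was well above the median level in all 4 of its probe sets. The brightest, 204780_s_at, read 8.30, 7.95, 7.93 and 7.70 in vehicle, 8.11, 8.15, 8.38 and 8.07 with AGA, and 8.22, 8.17, 8.16 and 7.81 with Aza, with overlap of all groups. Its differences were 0.20 ± 0.17 for AGA and 0.12 ± 0.17 for Aza. For AGA, 204781_s_at gave 0.01, 215719_x_at 0.29 and 216252_x_at 0.23, and for Aza -0.06, 0.12 and 0.13. FAS (216252_x_at) was higher in 4 of 4 AGA pairs, by 0.05 to 0.42.

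BAX, which permeabilizes the mitochondrial outer membrane, had similar differences in both of its probe sets. 211833_s_at read 6.86, 6.24, 6.53 and 6.64 in vehicle and 6.94, 6.75, 7.00 and 6.83 with Aza, a difference of 0.31 ± 0.17 (interval -0.06 to 0.68; limma, unadjusted p = 0.0879) that was above 0 in 4 of 4 pairs (0.07, 0.51, 0.47 and 0.20). 208478_s_at read 7.00, 6.56, 6.93 and 6.92 in vehicle and 7.35, 7.06, 7.39 and 6.76 with Aza, a difference of 0.29 ± 0.18 (interval -0.11 to 0.68). In both, 3 of the 4 pairs were at 0.20 or above; the remaining pair was replicate 1 in the former and replicate 4, at -0.16, in the latter. For AGA the differences were 0.08 and 0.11. On the deposited scale, without normalization, the AGA differences were -0.20 and -0.17, where the median of all probe sets had itself moved by -0.24. The Aza differences on that scale were 0.24 and 0.21, where that median had moved by -0.06. The change of sign with AGA is therefore not particular to BAX.

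TP53I3, also called PIG3, is a quinone oxidoreductase-like enzyme tied to oxidative stress in p53-driven apoptosis. Its probe set, 210609_s_at, read 8.10, 7.20, 6.88 and 6.84 in vehicle, 8.18, 7.31, 7.96 and 7.26 with AGA, and 8.65, 7.62, 7.47 and 7.36 with Aza. The groups overlapped because replicate 1 was high in all 3: its lowest array, at 8.10, lay above every array of replicates 2 to 4. Within pairs the Aza array was higher by 0.55, 0.42, 0.59 and 0.52, a spread of 0.07 (SD of 4 pairs). The mean difference was 0.52, a factor of 1.43, with an SE of 0.37 and an interval of -0.30 to 1.34 when the replicate number was ignored. With the replicate number as a block the SE was 0.18 and the interval 0.09 to 0.95 (limma, unadjusted p = 0.0239), and the adjusted p was 0.912, so TP53I3 was not called. Adding an intensity trend to the prior variance gave an adjusted p of 0.535. The difference was above 0 in all 21 alternative analyses, from 0.23 without Aza replicate 1 to 0.80 without vehicle replicate 1. Some of these, such as the block, the trend and Holm's adjustment, cannot change the difference, so they are not 21 separate checks.

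With AGA, TP53I3 was also higher in 4 of 4 pairs (0.09, 0.12, 1.08 and 0.41), with a mean difference of 0.42. With the block, its unadjusted p was 0.0519 and its adjusted p 0.529 (limma). Aza and AGA themselves differed by 0.10 ± 0.37 (interval -0.73 to 0.92), with 3 pairs above 0 and 1 at -0.49. The 2 comparisons share the vehicle arrays.

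PHLDA3 (218634_at), a repressor of AKT signalling, read 6.96, 6.56, 6.79 and 6.73 in vehicle, 7.09, 6.85, 6.79 and 6.90 with AGA, and 6.67, 7.28, 6.34 and 6.54 with Aza. It was higher in 4 of 4 AGA pairs, with a mean difference of 0.15 ± 0.20, and lower in 3 of 4 Aza pairs, with a mean of -0.05 ± 0.20. SESN1 (218346_s_at), a sestrin that restrains mTORC1 signalling under stress, read 9.38, 9.40, 9.62 and 10.16 in vehicle, 9.27, 9.62, 9.10 and 9.74 with AGA, and 9.31, 9.55, 9.18 and 10.48 with Aza. In each group its highest array was that of replicate 4. Its differences were -0.21 ± 0.30 for AGA and -0.01 ± 0.30 for Aza.

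**Figure D3:**
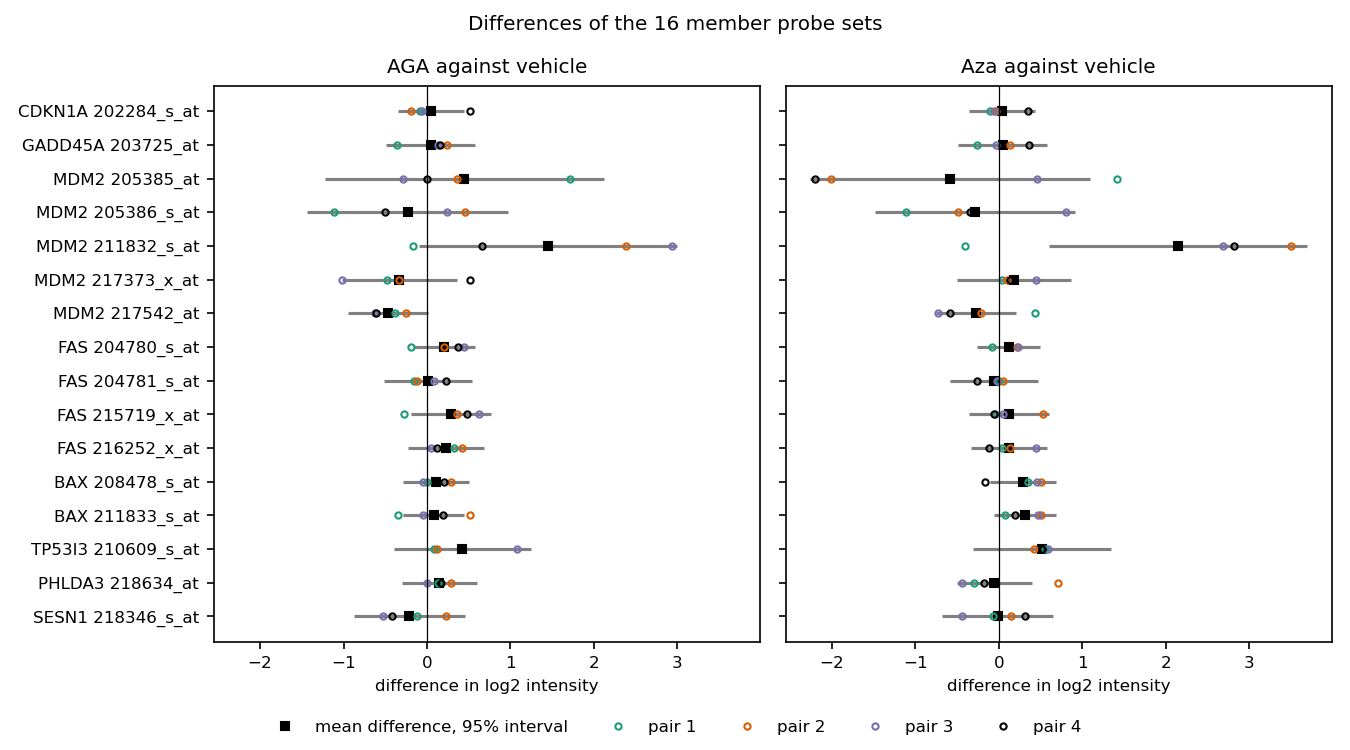
Difference in log2 intensity (horizontal axes) of the 16 probe sets (vertical axis) for AGA against vehicle and Aza against vehicle. Black squares are means with 95% intervals of the main fit, which leaves the replicate number out. Open circles are the 4 pairs of equal replicate number. All intervals hold 0 except that of MDM2 211832_s_at for Aza against vehicle (0.61 to 3.69), and the TP53I3 circles for Aza lie together at 0.42 to 0.59.

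Read as a set, the 16 differences lay slightly above 0 for both treatments. The median was 0.10 for AGA, with 12 of 16 above 0, and 0.08 for Aza, with 10 of 16 above 0; the median over all probe sets was 0.00 in both. With the brightest probe set of each gene the medians were 0.08 and 0.08, with 6 of 8 above 0 in each. The medians of the single pairs show how little this is: for Aza they were -0.02, 0.14, 0.33 and 0.03 in replicates 1 to 4, and for AGA -0.16, 0.27, 0.02 and 0.20. On the deposited scale the AGA median was -0.15, where the median of all probe sets had itself moved by -0.24; relative to that shift it was 0.10.

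For AGA against vehicle, 3 of 16 probe sets were higher in 4 of 4 pairs (FAS 216252_x_at, TP53I3 and PHLDA3) and 1 was lower (MDM2 217542_at), where 9.15% of all probe sets were higher and 9.06% lower. For Aza against vehicle, 3 were higher (TP53I3, BAX 211833_s_at and MDM2 217373_x_at) and 0 lower, against 7.61% and 7.12% of all. Of these, TP53I3 alone stood in both sets of 3, and the comparisons share their vehicle arrays. In no comparison did the 4 arrays of 1 group lie all above or all below those of the other for any of the 16, which happened for 2.52% of all probe sets with AGA, 1.72% with Aza and 2.58% between the treatments.

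**Figure D4:**
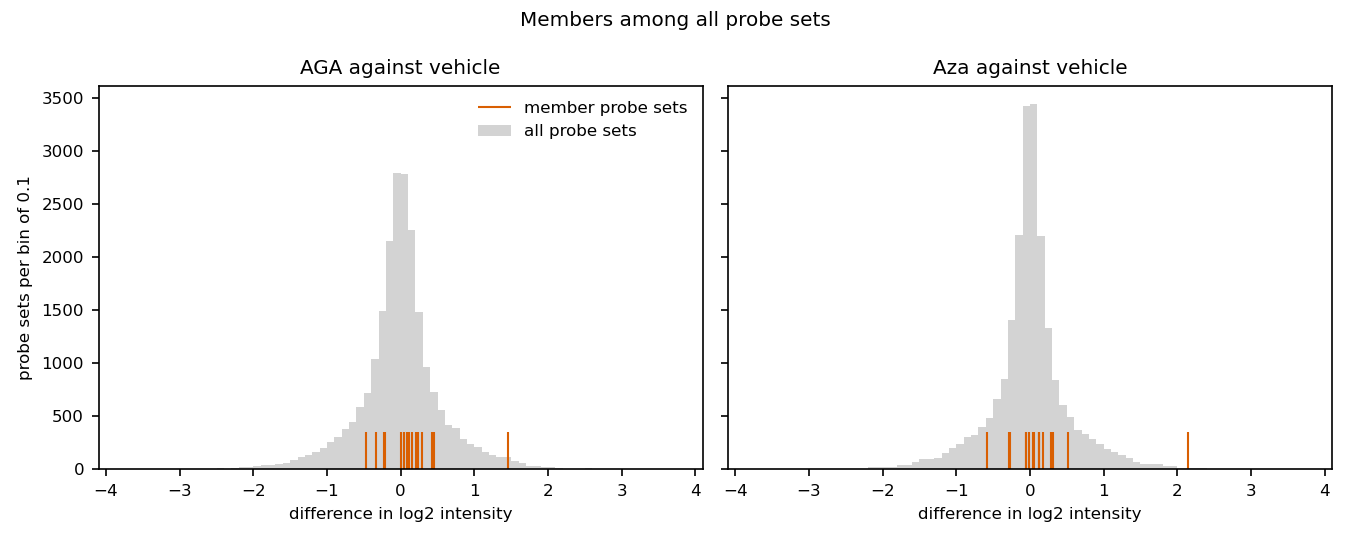
Number of probe sets per bin of 0.1 (vertical axis, grey bars, all 22215 probe sets) by difference in log2 intensity (horizontal axes) for AGA and for Aza, each against vehicle, with an orange line at the difference of each of the 16 probe sets. Apart from the dim MDM2 probe sets, the lines stand in the central bulk, between -0.21 and 0.52.

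The direct comparison of the treatments, Aza against AGA, asks whether the DNA-incorporated compound differed from one that also removed polarity. The median of the 16 differences was 0.00, with 8 above 0, and 0 of 16 were higher or lower in 4 of 4 pairs, where 8.66% and 8.76% of all probe sets were. CDKN1A differed by -0.01 ± 0.18 (interval -0.40 to 0.39) and GADD45A by 0.01 ± 0.24. BAX was 0.23 ± 0.17 (211833_s_at) and 0.18 ± 0.18 (208478_s_at) higher on the Aza arrays, with intervals that hold 0. No limma p, adjusted or unadjusted, fell under 0.05 for the 16, where 4.76% of all probe sets had an unadjusted p that low; for AGA against vehicle the count was also 0, against 4.73%.

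In these genes, as in most of all probe sets, the replicate number went with more of the variance than the treatment did. Its share of the variance over the 12 arrays exceeded that of the group in 12 of 16 probe sets, and in 77.4% of all probe sets; replicate number has 4 levels and group 3, so the shares are not on an equal footing. For GADD45A the replicate number held 81.9% and the group 0.56%, for FAS (204781_s_at) 83.6% and 1.12%, and for CDKN1A 60.8% and 1.15%. The 4 exceptions were both BAX probe sets and MDM2 211832_s_at and 217542_at.

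The direction differed between genes. The 3 replicate 4 arrays averaged 10.12 for SESN1 and the other 9 arrays 9.38, and the lowest of the 3, at 9.74, lay above the highest of the 9. GADD45A was lower on the replicate 4 arrays, at 10.63 against 11.04, but was also 0.44 higher on the replicate 1 arrays than on the rest. TP53I3 was at 7.15 on the replicate 4 arrays against 7.71. For that gene replicate 1 stood further apart, at a mean of 8.31 and 0.99 above the rest, and it raises the 7.71. The replicate 4 arrays stood apart from the rest in all groups alike: over the probe sets above the median level, component 1 of a principal component analysis took 43.4% of the variance and scored them at 38.9 or more, and the others at -7.34 or less. What set them apart is not given in the sources used here.

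**Figure D5:**
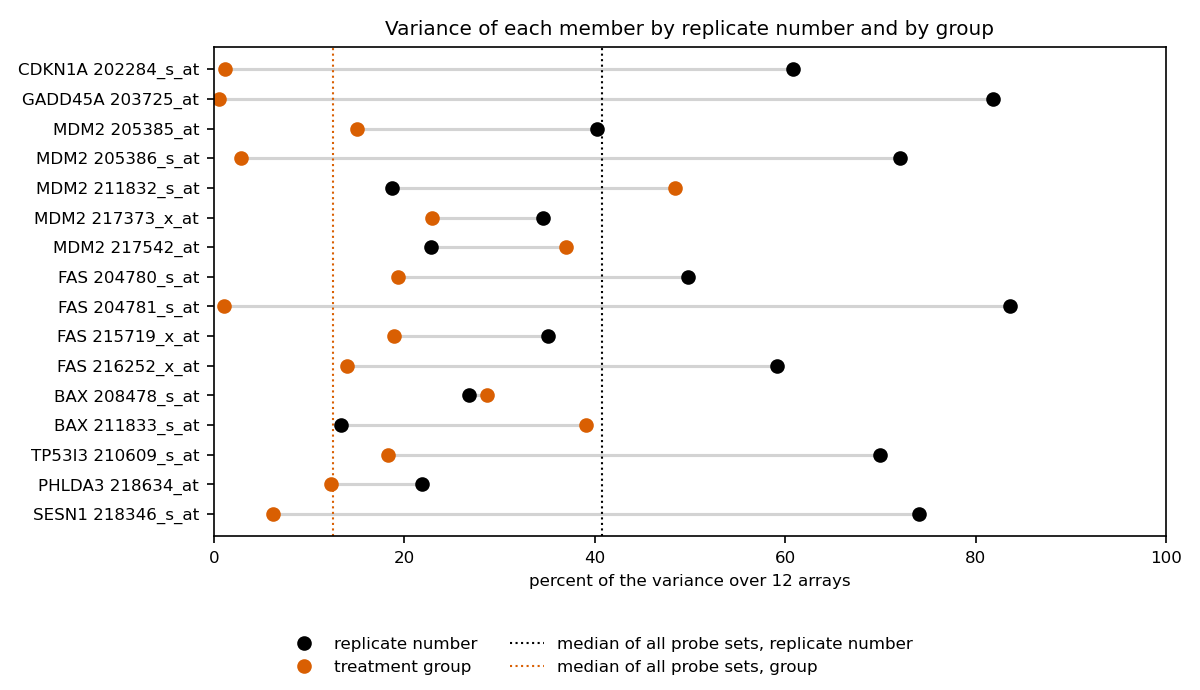
Percent of the variance over 12 arrays (horizontal axis) that went with replicate number (black) and with treatment group (orange) for each of the 16 probe sets (vertical axis); dotted lines are the medians over all probe sets, 40.8% and 12.5%. The black point lies to the right of the orange one in 12 of 16 probe sets, by the widest margins for FAS 204781_s_at and GADD45A. Replicate number held the larger share in 77.4% of all probe sets, which are not drawn singly.

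With the replicate number as a block, 0 of 16 were called in each comparison, against 0.00900% of all probe sets for AGA, 0% for Aza and 0.00900% between the treatments. The count with an unadjusted p under 0.05 was then 1 for AGA (MDM2 217542_at, unadjusted p = 0.0492), 2 for Aza (MDM2 211832_s_at and TP53I3) and 0 between treatments, where 9.52%, 5.39% and 9.13% of all probe sets had such a p (limma). With an intensity trend added, 0.702%, 0.00450% and 0.851% of all probe sets were called and again 0 of the 16.

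The wider p53 and damage pathway was read from 9 lists, with 156 of 187 listed genes measured by 283 probe sets: p53 targets in arrest and survival, in apoptosis and in repair, p53 regulators, damage sensors and checkpoint kinases, 3 classes of DNA repair, and cell cycle genes lowered through p53 and p21. By limma's adjusted p, with or without the replicate block, 0 of the 283 passed in any comparison. Unadjusted, 16 (5.65%) had a p under 0.05 for AGA, 5 (1.77%) for Aza and 14 (4.95%) between the treatments, where the shares of all probe sets were 4.73%, 3.27% and 4.76%. With the block the counts were 39 (13.8%), 12 (4.24%) and 27 (9.54%), against 9.52%, 5.39% and 9.13% of all. With AGA, 20 of the 283 (7.07%) were higher and 39 (13.8%) lower than vehicle in 4 of 4 pairs, where the shares of all probe sets were 9.15% and 9.06%. With Aza, 19 (6.71%) were higher and 25 (8.83%) lower, where the shares of all probe sets were 7.61% and 7.12%. The medians over the 283 were -0.02, -0.04 and 0.01.

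The other p53 targets in arrest and survival (21 of 26 genes, 41 probe sets) had a median of -0.01 for AGA and 0.06 for Aza, with 19 and 22 of 41 above 0. The apoptosis targets (20 of 23 genes, 36 probe sets) had medians of 0.04 and -0.04. The repair targets (6 of 8 genes, 9 probe sets) had medians of -0.12 and 0.08, with 3 and 7 of 9 above 0. For the cell cycle genes that p53 lowers through p21 (18 of 18 genes, 35 probe sets) the medians were -0.14 and -0.17, with 12 of 35 above 0 under each treatment and 0 called. Of all probe sets, 49.9% were above 0 with AGA and 49.7% with Aza. The 2 comparisons share the vehicle arrays.

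NBN, a subunit of the MRE11 complex that senses double-strand breaks, held the 2 pathway probe sets that passed in any fit with all 12 arrays. With the block and the intensity trend, NBN 202907_s_at fell by 0.43 (limma, adjusted p = 0.0214) and 217299_s_at fell by 0.45 (adjusted p = 0.0391) with AGA against vehicle; without the trend neither passed. These 2 were 0.707% of the 283, where 0.702% of all probe sets passed in that fit. The 2 other NBN probe sets were at -0.22 and -0.39. With Aza, 202907_s_at was at -0.10 and 217299_s_at at -0.16, and the 2 others, 202905_x_at and 202906_s_at, were at -0.21 and 0.04.

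Of the remaining pathway genes, none passed, and those with the lowest unadjusted p in each direction are given as values. EP300, an acetyltransferase that acts on p53, was at 6.82 ± 0.12 (SD, n = 4) in vehicle, 6.28 ± 0.20 with AGA and 6.32 ± 0.14 with Aza for 202221_s_at, with no overlap of either treatment with vehicle. Its differences were -0.54 and -0.50 (limma, adjusted p = 0.883 and 1), and its other probe set gave -0.21 and -0.43. Treatment and vehicle did not overlap in 6 of the 283 with AGA and 7 with Aza. The shares of all probe sets were 2.52% and 1.72%. Both comparisons use the same 4 vehicle arrays. H2AX, the histone variant phosphorylated at breaks, was at 3.90 ± 0.23 in vehicle, 4.74 ± 0.53 with AGA and 4.64 ± 0.36 with Aza for the dim 212525_s_at, whereas its brightest probe set gave 0.02 and -0.05. GDF15, a stress-induced cytokine, was 0.84 higher with AGA in 221577_x_at and 0.18 higher with Aza. PML 211013_x_at, of the nuclear body protein, was 1.34 higher with AGA and 1.12 higher with Aza. Vehicle replicate 4 was the lowest of the 12 arrays there, far below the other vehicle arrays at 3.76 to 4.51, and without it the differences were 0.66 and 0.44, in fits added after the values were seen. The other PML probe sets ran from -0.65 to 0.88 with AGA and from -1.61 to 1.30 with Aza, and the brightest, 211012_s_at, gave -0.23 and 0.10.

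BUB1 215508_at, for a mitotic checkpoint kinase, was at the floor (an intensity of 1 or below) on all 8 treated arrays and on vehicle replicate 1. It was at 1.29 to 1.41 on the other 3 vehicle arrays, which is close to the lowest value used. The brightest BUB1 probe set, 209642_at, gave 0.61 with AGA and 1.21 with Aza. Its vehicle replicate 1 array was also at the floor, with the other vehicle arrays at 1.74 to 3.58, so these differences are no firmer. EXO1, a resection nuclease, was 1.39 higher with Aza, but at a low level. It read 1.35, 3.73, 1.00 and 1.16 in vehicle and 2.48 to 4.01 with Aza, so vehicle replicate 2 lay inside the Aza range. BRCA1 211851_x_at, a recombination protein, was at -0.95 with Aza, while the brighter BRCA1 204531_s_at gave 0.12. KITLG 211124_s_at, a growth factor, was at -2.01 with AGA, while the brighter KITLG 207029_at gave 0.11. Between Aza and AGA the lowest unadjusted p belonged, among those higher with Aza, to MKI67 212020_s_at (a proliferation antigen, 2.12), KITLG (2.07) and BLM (a helicase, 0.88), and, among those lower, to AURKB (a mitotic kinase, -1.82), MRE11 (-0.51) and FEN1 (a flap nuclease, -0.40). The 3 other MKI67 probe sets gave -0.28, -0.58 and 0.55. KITLG 211124_s_at was at the floor on AGA replicate 3, and AURKB was at 0.02 on Aza replicate 2. In KITLG 207029_at the Aza arrays (3.12 to 4.53) overlapped the AGA arrays (3.34 to 4.14). In the other FEN1 probe set, 204768_s_at, the Aza arrays (5.07 to 5.48) overlapped the AGA arrays (4.91 to 5.70). Probe sets of 1 gene thus often disagreed where the level was low.

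The labelled cell type was checked against marker genes: 7 of 9 measured epithelial markers lay above the median level, led by KRT5 and KRT14 at 12.39 and 12.37, while KRT19 was at the floor. The defining leukocyte markers were below the median in 6 of 6 cases, and 2 of 8 fibroblast (COL1A1 and DCN) and 2 of 8 endothelial or adipocyte markers (KDR and PLIN1) lay above it. The summed linear levels of the fibroblast markers ran from 203 to 280 in vehicle, 158 to 236 with AGA and 231 to 292 with Aza, against 9417 to 14715, 13412 to 16009 and 9090 to 14382 for the epithelial markers. With the block and intensity trend, DCN (201893_x_at) rose by 1.47 and KDR by 0.75 with Aza against AGA (limma, adjusted p = 0.0162 and 0.0131), where 0.851% of all probe sets passed. Their lists did not move as a whole. Above 0 were 13 of 20 fibroblast and 5 of 11 endothelial or adipocyte probe sets, and 49.6% of all probe sets. By the brightest probe set of each gene, 4 of 8 were above 0 in each list, with medians of -0.01 and 0.00. In the same comparison 0 of 13 epithelial marker probe sets were above 0 and the median was -0.42, with 0 called; on the deposited scale 3 of 13 were above 0 and the median was -0.22. For AGA against vehicle 10 of the 13 were above 0, with a median of 0.07 (5 of 13 and -0.04 on the deposited scale), and for Aza against vehicle 4 of 13, with a median of -0.19. The part of these marker levels in the values of the p53 targets was not tested.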

How the data were processed

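Biotin-labelled RNA (2.25 µg per sample, per the labels' protocols) was hybridized to 12 Affymetrix arrays, 1 per sample. The deposited values are linear intensities per probe set, made with GCOS per the submitters' processing notes; its version, algorithm and any scaling are not given in the sources used here. Array medians ran from 23.3 to 35.9, and 5.26% to 7.94% of values per array were below 1; detection calls were not used, and precision is limited by how many arrays there are.

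Values below 1 were set to 1, log2 was taken, 62 control probe sets were left out and the arrays were quantile normalized. Each of 22215 probe sets was fitted with limma 3.58.1 (lmFit and eBayes, two-sided) in R 4.3.3 over all 12 arrays, with Benjamini-Hochberg adjustment over all of them. The scripts were tested on simulated data. Of the probe sets, 19064 carried 1 symbol, 1043 several (none named here) and 2108 none; 19052 matched the GRCh38.p14 gene table, which changed 0 symbols.

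Deviations of same-numbered arrays from their group means correlated over 0.1 in 12 of 12 pairs among probe sets above the median level (0.368 to 0.781; different numbers at most 0.182) and in 6 of 12 over all probe sets (0.0589 to 0.261; at most 0.0292). Arrays of equal number were therefore taken as pairs, on the data alone, since the labels state no pairing. The main fit leaves the block out. The text names every probe set of the 8 genes measured, each other pathway gene called with or without the replicate block (NBN also needed the intensity trend and was added after its values were seen), and the 3 lowest unadjusted p per direction in each comparison. The genes and lists were chosen with earlier results of these data known.

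Alternatives were the deposited scale, median-centred arrays, a floor of 16, leaving out dim probe sets, the replicate block, the block with an intensity trend, Holm's adjustment, fits on the 2 groups compared, and leaving out each array or all replicate 4 arrays.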

Additional observations from a re-analysis of the deposited data

Results flagged for a closer look

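For FAS (204780_s_at), the Aza replicate 4 array read 7.81 (log2 intensity) while the other 3 Aza arrays lay between 8.16 and 8.22. This gap was 0.853 of the range of the group, above Dixon's critical value for 4 samples. It was 1 of 48 groups of 4 arrays examined, and chance flags about 5% of such groups. The vehicle array of replicate 4 was also the lowest of its group for this probe set, at 7.70.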

How the results depend on the processing

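In 21 alternatives, 0 of the 16 probe sets were called in any comparison. The fit with the replicate block changed no call. Its median differences were the same because the groups are balanced over the replicate numbers, which fixes them in advance. The single probe sets had 333 values per comparison, of which 24 (AGA against vehicle), 23 (Aza against vehicle) and 33 (Aza against AGA) differed in sign from the main value, with lowest adjusted p of 0.213, 0.535 and 0.485 (limma). The 333 values include settings, such as the replicate block and Holm's adjustment, that cannot change a sign. On the deposited scale the median difference was -0.15 for AGA against vehicle and 0.18 for Aza against AGA, where all probe sets shifted by -0.24 and 0.18; the cause of the shift was not tested. Leaving out 1 array gave medians of 0.05 to 0.17 for AGA, 0.02 to 0.23 for Aza and -0.08 to 0.07 between them. Of the pathway probe sets, 2 were called for AGA with the replicate block and intensity trend (both NBN), and leaving out 1 array gave 0 to 1 for AGA and for Aza: without vehicle replicate 1, BUB1 215508_at was called at -1.33 (adjusted p = 0.0107 and 0.0320), since that array alone of the vehicle group was at the floor. No intensity this close to the floor bears a fold change. Signal limits MDM2 most, whose probe sets lay near or below the median level.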
